A study of Homo sapiens with 19 samples.

Results

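ERRα binding was described at 9 transcription factor genes of the luminal breast lineage, ESR1, FOXA1, GATA3, TFAP2A, TFAP2C, GRHL2, SPDEF, XBP1 and ELF3. The 9 genes were chosen by name among 20136 protein-coding genes. A peak was assigned to a gene when its centre lay in the gene body or within 20 kb of an annotated transcript start. On this rule the 9 genes held between 18 peaks in pSKBr3 cells and 37 in HRG-treated SKBr3 cells. Overlapping peaks of the 8 lists, with 1 bp in common or linked by another peak, were joined as 1 site, which gave 60 sites at the 9 genes among 90452 sites in all. Sites are numbered along the chromosome within each gene, so that ESR1-s01 is the first site of ESR1.

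ERRα is an orphan nuclear receptor that binds DNA at the oestrogen-related receptor element (ERRE) and is best known as a regulator of energy metabolism. Luminal breast cells owe their identity to a small circuit of transcription factors. The oestrogen receptor encoded by ESR1 is a ligand-activated receptor, FOXA1 opens chromatin ahead of it, and GATA3 acts with both. TFAP2A and TFAP2C belong to the AP-2 family, GRHL2 maintains the epithelial state, SPDEF and ELF3 are epithelial ETS factors, and XBP1 drives the secretory stress response and is a known oestrogen-responsive gene.

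Both parental lines are HER2-amplified breast cancer lines, SKBr3 being oestrogen receptor-negative and BT-474 oestrogen receptor-positive. SKBr3 and BT-474 cells were serum-starved for 24 h and then received PBS vehicle, EGF or HRG (heregulin) for 90 min, each growth factor at 100 μM as the labels give the dose. Parental pSKBr3 cells were untreated, and lapatinib-resistant LRSKBr3 cells were maintained in 2 μM lapatinib, a HER2 and EGFR kinase inhibitor, so that the line and the drug cannot be told apart. Chromatin was precipitated with an ERRα antibody and sequenced, and 1 peak list was deposited per condition. Each SKBr3, pSKBr3 and LRSKBr3 list pools 2 ChIP libraries, and each BT-474 list rests on 1 ChIP library, called against an input of vehicle-treated cells that the 3 BT-474 lists share. No list carries a spread between replicates, so no difference below was tested and no P value is given. The lists held 22539 (pSKBr3) to 41271 (BT-474 HRG) peaks and carry no tag counts, so the sequencing depth is unknown. The median peak width was 1188 to 1458 bp in the 5 lists of SKBr3 origin and 1817 to 2012 bp in the 3 BT-474 lists. Expression was not measured in these files. CDH1, the epithelial cadherin gene that SKBr3 cells are known to lack, held 8, 6 and 8 peaks in the vehicle, EGF and HRG lists of BT-474 cells and 0 in all 5 lists of SKBr3 origin.

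Every complete ERRE (TCAAGGTCA, either strand) under a peak of the 9 genes was located in the GRCh37 sequence, because this is the word that ERRα itself recognises. There were 8 such words at 7 sites in 4 genes. The strongest peak held an ERRE at 7 of the 60 sites (11.7%), against 12.5% of all sites, so the sequences describe these sites and do not set them apart. The stretches of 6 of these sites are printed below, read along the plus strand with the ERRE in capitals (as its reverse complement where the element lies on the minus strand), and the seventh, GRHL2-s07, is not shown. These stretches were chosen for display after the values had been seen.
ESR1-s05: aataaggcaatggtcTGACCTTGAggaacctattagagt
ESR1-s07: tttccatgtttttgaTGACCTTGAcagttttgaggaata
ESR1-s11: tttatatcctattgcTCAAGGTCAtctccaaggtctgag
ESR1-s12: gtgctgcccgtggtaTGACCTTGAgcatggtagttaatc
SPDEF-s07: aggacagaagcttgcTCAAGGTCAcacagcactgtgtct
ELF3-s01: gctcgagTGACCTTGACCTTGAccaagtc
The first 4 stretches lie in introns of ESR1, at chr6:152079007-152079045, chr6:152104986-152105024, chr6:152227117-152227155 and chr6:152258971-152259009. The SPDEF stretch (chr6:34537133-34537171) lies 13038 bp from the nearest SPDEF start, upstream of the gene. The ELF3 stretch (chr1:201985426-201985454) lies in the 3′ UTR of ELF3 and holds 2 overlapping ERREs, and it was the only one covered by a peak in all 8 lists. ESR1-s11 was covered in 5 lists (all 3 SKBr3 lists and the vehicle and HRG lists of BT-474), ESR1-s07 in 3, ESR1-s12 and SPDEF-s07 in 2 each, and ESR1-s05 in LRSKBr3 alone.

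A shorter word, the 7-base extended core AAGGTCA shared by many nuclear receptors, lay near the centre of a promoter site of GATA3 and of the most upstream site of ESR1. Both are shown as 201 bases around the centre of the strongest peak with the word in capitals, and this display too was chosen afterwards.
GATA3-s02: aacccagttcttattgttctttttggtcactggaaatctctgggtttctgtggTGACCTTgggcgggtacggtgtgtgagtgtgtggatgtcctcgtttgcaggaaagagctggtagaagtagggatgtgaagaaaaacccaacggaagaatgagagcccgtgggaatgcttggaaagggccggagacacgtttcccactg
ESR1-s01: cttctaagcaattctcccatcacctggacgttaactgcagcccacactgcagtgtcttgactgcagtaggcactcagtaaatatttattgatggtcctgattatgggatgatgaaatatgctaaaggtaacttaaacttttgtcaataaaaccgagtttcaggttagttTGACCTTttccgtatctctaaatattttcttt
GATA3-s02 (chr10:8087602-8087802 as shown) lay 361 bp inside the most upstream GATA3 start and ESR1-s01 (chr6:151979239-151979439 as shown) lay 1513 bp inside the most upstream ESR1 start. The first was called in 5 lists of both cell lines and the second in the 3 BT-474 lists only.

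ERRα peaks lay at 8 of the 9 genes in at least 1 list. Of the 9 genes, 7 were bound in SKBr3 cells on vehicle, 8 on EGF and 8 on HRG, against 57.2%, 59.6% and 69.4% of all protein-coding genes. In BT-474 cells 8 were bound on vehicle, EGF and HRG, against 56.6%, 46.3% and 58.7% of all genes. In pSKBr3 cells 6 were bound and in LRSKBr3 cells 7, against 60.0% and 72.4%. ESR1, FOXA1, TFAP2A, SPDEF, XBP1 and ELF3 held a peak in all 8 lists, as 30.3% of all genes did. At 1e-10 TFAP2A left this group, without the gene body ESR1 did, and with 10 kb in place of 20 kb SPDEF and XBP1 did. TFAP2C held none in any list, as 13.6% of all genes did. Peaks per 100 kb of gene window exceeded the value over all genes in every list, by 1.33-fold in pSKBr3 to 1.97-fold in EGF-treated SKBr3 among the lists of SKBr3 origin, and by 2.19-fold to 2.68-fold in the BT-474 lists. The windows ranged from 40.0 kb (SPDEF) to 493 kb (ESR1), so the counts of different genes are not compared with each other.

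**Figure D1:**
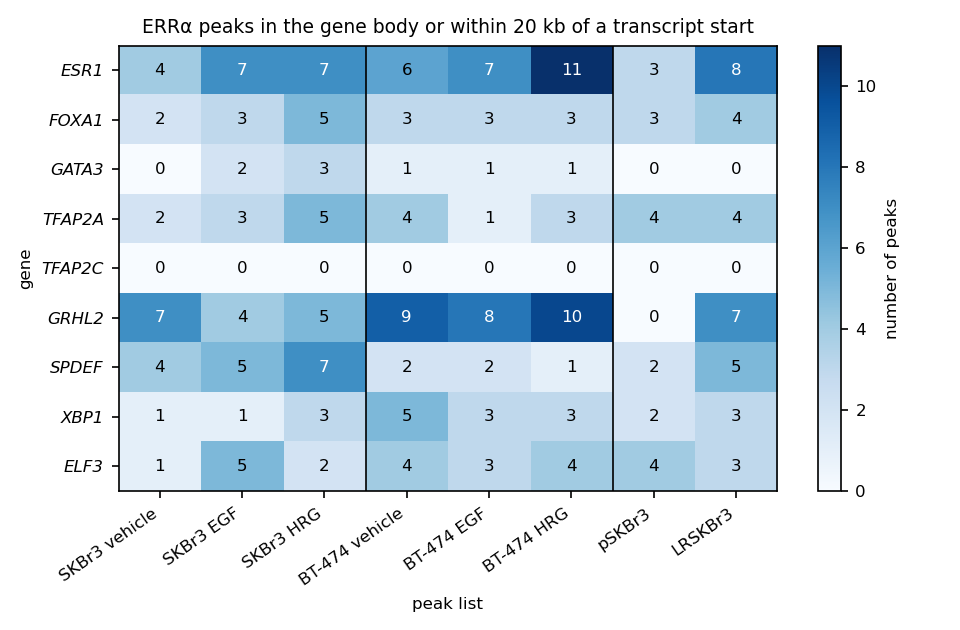
Number of ERRα peaks at each of the 9 genes (rows) in each of the 8 peak lists (columns), with the number printed in each cell and black lines between the SKBr3, BT-474 and pSKBr3/LRSKBr3 lists. TFAP2C is at 0 throughout, GRHL2 runs from 0 in pSKBr3 to 10 in BT-474 on HRG, and ESR1 reaches 11 in BT-474 on HRG.

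ESR1 (ENSG00000091831, chr6:151977826-152450754, plus strand) held 4, 7 and 7 peaks in SKBr3 cells on vehicle, EGF and HRG. It held 6, 7 and 11 peaks in BT-474 cells on the same treatments, 3 in pSKBr3 and 8 in LRSKBr3. The SKBr3 and BT-474 ranges overlapped. These peaks formed 19 sites, of which 6 were called in lists of both cell lines, 5 in BT-474 lists only and 8 in lists of SKBr3 origin only. The 3 most upstream sites, ESR1-s01, ESR1-s02 and ESR1-s03, were each called in all 3 BT-474 lists and in no list of SKBr3 origin. ESR1-s02 lay 546 bp upstream of an annotated start. The downstream end of the gene showed the reverse, with ESR1-s17, ESR1-s18 and ESR1-s19 called only in lists of SKBr3 origin. The sites from ESR1-s15 to ESR1-s19 lie closer to a start of the neighbouring SYNE1 than to any ESR1 start.

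ESR1-s16 was the only ESR1 site called in all 8 lists. It lies in an intron 147717 bp from the nearest ESR1 start and 55874 bp from a SYNE1 start. Its MACS score, a log-transformed P value that is larger for a stronger peak, was 1093.45 on vehicle, 894.5 on EGF and 581.81 on HRG in SKBr3 cells. In BT-474 cells the scores were 2125.86, 1111.59 and 1549.38, with 427.26 in pSKBr3 and 834.87 in LRSKBr3. Scores depend on depth, so sites are ranked below by their percentile among all peaks of their own list. On that scale ESR1-s16 lay between the 79.9th percentile in pSKBr3 and the 94.8th in BT-474 on vehicle.

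Of the 4 ESR1 sites with an ERRE, only ESR1-s11 was called on vehicle. It lay at the 27.1, 62.0 and 10.3 percentiles of the SKBr3 vehicle, EGF and HRG lists and at 12.9 and 56.9 of the BT-474 vehicle and HRG lists, and had no peak in BT-474 on EGF, pSKBr3 or LRSKBr3. ESR1-s05, ESR1-s07 and ESR1-s12 were called in LRSKBr3 and not in pSKBr3, at the 16.1, 15.7 and 25.0 percentiles, among the weaker peaks of that list. In BT-474 cells ESR1-s07 was called on EGF and HRG, and ESR1-s12 on HRG, neither of them on vehicle. A peak at ESR1-s10 was called on EGF and HRG but not on vehicle in SKBr3 cells, on HRG alone in BT-474 cells, and in both pSKBr3 and LRSKBr3. ESR1-s06, called in LRSKBr3 at the 72.1 percentile and in BT-474 on HRG at 27.8, was the highest-ranked ESR1 site of LRSKBr3 that pSKBr3 lacked.

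**Figure D2:**
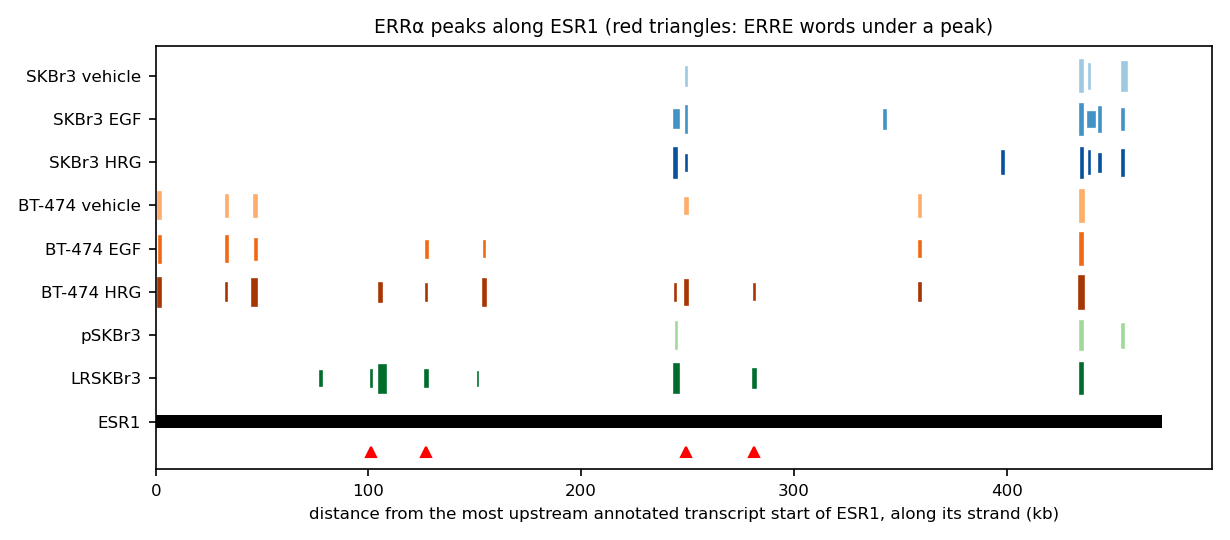
ERRα peaks along ESR1 in the 8 lists, as bars at their distance in kb from the most upstream annotated start, taller for a higher score percentile within the list, with the gene as a black bar and ERRE words under a peak as red triangles. The 3 leftmost sites hold BT-474 peaks only, 1 site near the right end is present in all 8 lists, and 3 of the 4 triangles lie under LRSKBr3 peaks.

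FOXA1 (ENSG00000129514, chr14:38058757-38065264, minus strand), the pioneer factor, held 2, 3 and 5 peaks in SKBr3 cells on vehicle, EGF and HRG and 3 peaks under each treatment in BT-474 cells. It held 3 peaks in pSKBr3 and 4 in LRSKBr3. All 4 FOXA1 sites were called in lists of both cell lines, where peaks were joined at 1 bp. With 50% of both peaks overlapping the same peaks formed 9 sites, and by centres 10. FOXA1-s02, over the gene body, was called in all 8 lists, at percentiles from 61.9 (BT-474 EGF) to 96.3 (LRSKBr3). FOXA1-s01, downstream of the gene, was called on EGF and HRG and not on vehicle in both cell lines, at 87.6 and 32.9 in SKBr3 and 68.0 and 23.2 in BT-474. The BT-474 HRG peak (chr14:38050855-38052979) overlapped neither SKBr3 peak (chr14:38048823-38050256 on EGF, chr14:38048933-38050065 on HRG), and the BT-474 EGF peak of 7733 bp joined them. FOXA1-s03, over the promoter, was absent only from the SKBr3 vehicle list and lay at the 23 and 80.6 percentiles on EGF and HRG. The summed width of FOXA1 peaks was 16.1, 12.2 and 13.9 kb in the vehicle, EGF and HRG lists of BT-474 cells and 2.70, 4.25 and 6.82 kb in those of SKBr3 cells, so the cell lines did not overlap in width although their counts did. BT-474 peaks were also wider across the whole lists, and how many of all genes separate by width was not counted.

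GATA3 (ENSG00000107485, chr10:8087341-8117161, plus strand) held 0, 2 and 3 peaks in SKBr3 cells on vehicle, EGF and HRG. It held 1 peak in each BT-474 list and 0 in both pSKBr3 and LRSKBr3. The BT-474 peak was GATA3-s02, the promoter site printed above, with scores of 126.64, 51.74 and 85.07 on vehicle, EGF and HRG. The same site scored 65.84 on EGF and 138.85 on HRG in SKBr3 cells, at the 15.3 and 48.4 percentiles of those lists. GATA3-s03, 156 bp from another GATA3 start, was called on HRG in SKBr3 cells only, at a score of 154.02. At the stricter threshold of 1e-10, only 2 SKBr3 HRG peaks and 1 BT-474 vehicle peak remained at GATA3.

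TFAP2A (ENSG00000137203, chr6:10393419-10419892, minus strand) held 2, 3 and 5 peaks in SKBr3 cells on vehicle, EGF and HRG and 4, 1 and 3 in BT-474 cells, with 4 in both pSKBr3 and LRSKBr3. The promoter site TFAP2A-s02 was called in all 8 lists. It lay at the 92.8 to 95.6 percentiles of the 5 lists of SKBr3 origin, at 82.6 and 80.1 of the BT-474 vehicle and HRG lists, and at 33.8 of the BT-474 EGF list. TFAP2A-s04, 323 bp from a start, was called in SKBr3 on HRG, in pSKBr3 and in LRSKBr3 and in no BT-474 list. TFAP2A-s05, further upstream, was called in all 5 lists of SKBr3 origin and in no BT-474 list. TFAP2A-s06 was a weak peak of the BT-474 vehicle list alone, at the 15.5 percentile.

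TFAP2C (ENSG00000087510, chr20:55204362-55214339, plus strand), the AP-2 factor most closely tied to luminal breast cells, had no peak centred in its window of 40.9 kb. The centre of the nearest peak lay 342, 178 and 321 kb from a TFAP2C start in the vehicle, EGF and HRG lists of SKBr3 cells. In BT-474 cells the distances were 91.4, 23.5 and 23.4 kb, and in pSKBr3 and LRSKBr3 they were 23.5 and 58.3 kb. The BT-474 EGF, BT-474 HRG and pSKBr3 peaks thus had their centres just outside the 20 kb limit, at the 83.0, 93.5 and 54.3 percentiles. The BT-474 EGF and HRG peaks ended at chr20:55185405 and chr20:55185678, so that their edges reached into the window. Within 1 Mb of the gene, peaks were fewer than an even spread over the genome would give in all 8 lists, from 0.0955-fold in BT-474 on vehicle to 0.957-fold in pSKBr3.

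GRHL2 (ENSG00000083307, chr8:102504667-102681954, plus strand) separated the cell lines by count. It held 7, 4 and 5 peaks in SKBr3 cells on vehicle, EGF and HRG and 9, 8 and 10 in BT-474 cells. In the full lists it alone of the 9 genes had more peaks in every BT-474 list than in every SKBr3 list, a pattern that 6.91% of all genes shared. In lists of equal size and at 1e-10, 2 genes did, GRHL2 and XBP1 (7.28% and 5.90% of all genes). The summed peak width was 45.7, 33.0 and 43.8 kb in BT-474 cells and 9.76, 6.35 and 8.44 kb in SKBr3 cells. In lists cut to an equal size of the 22539 strongest peaks (ties kept), GRHL2 kept 8 peaks in each BT-474 list and 5, 4 and 1 in the SKBr3 lists. The strongest site, GRHL2-s10, scored 1895.97, 1768.29 and 3100.0 in BT-474 cells on vehicle, EGF and HRG and 115.83, 119.88 and 106.35 in SKBr3 cells. That site lay at the 94.1 to 98.4 percentiles of the BT-474 lists and at the 38.4 to 43.4 percentiles of the SKBr3 lists. The score of 3100.0 recurred exactly at SPDEF, XBP1 and ELF3, so peaks of a list that share it are tied and not ranked among themselves.

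Of the 12 GRHL2 sites, 9 were called in lists of both cell lines, where peaks were joined at 1 bp, against 27.2% of all sites. With 50% of both peaks overlapping, or by centres, the same peaks formed 17 sites. GRHL2-s01, upstream of the gene, was called in all lists but pSKBr3, at percentiles from 36.2 in LRSKBr3 to 90.8 in BT-474 on HRG. GRHL2-s05, in an intron, lay at the 55.9 to 78.4 percentiles of the BT-474 lists and was called in SKBr3 cells on HRG only, at the 12 percentile. GRHL2-s03 was called only in BT-474 on HRG, at the 27.5 percentile, and GRHL2-s12 only in SKBr3 on vehicle, at the 11 percentile and nearer to a start of NCALD.

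GRHL2 held 0 peaks in pSKBr3 and 7 in LRSKBr3. All 7 of its LRSKBr3 sites were therefore absent from pSKBr3, and all 7 were also called in BT-474 cells. The percentiles of these sites in LRSKBr3 ran from 3.75 (GRHL2-s04) to 48.8 (GRHL2-s10), all below the median of that list. In lists of equal size LRSKBr3 held 1 peak at GRHL2. The SKBr3 vehicle list, from starved cells, also held 7 peaks there. Within 1 Mb of GRHL2 the pSKBr3 list did hold 20 peaks, 1.26-fold the number of an even spread, and the LRSKBr3 list 53 (1.89-fold). On vehicle, EGF and HRG the values there were 1.86-fold, 2.01-fold and 1.68-fold in SKBr3 cells and 2.38-fold, 2.12-fold and 2.27-fold in BT-474 cells. The surroundings thus differed in the same directions as the gene.

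SPDEF (ENSG00000124664, chr6:34505579-34524110, minus strand) went the other way. It held 4, 5 and 7 peaks in SKBr3 cells on vehicle, EGF and HRG and 2, 2 and 1 in BT-474 cells, with 2 in pSKBr3 and 5 in LRSKBr3. It alone had more peaks in every SKBr3 list than in every BT-474 list, as 13.2% of all genes did. In lists of equal size the counts were 2, 3 and 5 against 2, 2 and 1, so that the cell lines met at 2, and at 1e-10 they met at 2 as well. Summed peak width was 8.72, 11.4 and 21.5 kb in SKBr3 cells and 5.42, 4.30 and 3.28 kb in BT-474 cells. SPDEF-s01, at the 3′ end of the gene, was called in all 8 lists at the 89.0 to 98.7 percentiles. SPDEF-s02 lay at the 86.3 to 95.7 percentiles of the lists of SKBr3 origin, at 34.3 and 35.2 of the BT-474 vehicle and EGF lists, and was not called in BT-474 on HRG.

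The other 5 SPDEF sites were called only in lists of SKBr3 origin. SPDEF-s04, in an intron, scored 52.09 on vehicle, 87.53 on EGF in the stronger of 2 peaks and 1013.96 on HRG in SKBr3 cells, and 291.03 in LRSKBr3. The ERRE-bearing site SPDEF-s07 scored 52.12 on vehicle and 315.93 on HRG, was not called on EGF, and scored 504.96 in LRSKBr3. SPDEF-s05, upstream of the gene, was called on EGF and HRG in SKBr3 cells and in LRSKBr3. None of these 3 sites had a peak in pSKBr3 cells. Peaks were dense around SPDEF in general, at 1.71-fold to 4.0-fold an even spread within 1 Mb. On vehicle, EGF and HRG the values there were 2.29-fold, 2.78-fold and 4.0-fold in SKBr3 cells and 1.85-fold, 1.71-fold and 2.01-fold in BT-474 cells. They were 3.54-fold in pSKBr3 and 3.74-fold in LRSKBr3. As at the gene, every SKBr3 value exceeded every BT-474 value, and LRSKBr3 exceeded pSKBr3. In BT-474 cells the surroundings rose on HRG while the count at the gene fell.

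**Figure D3:**
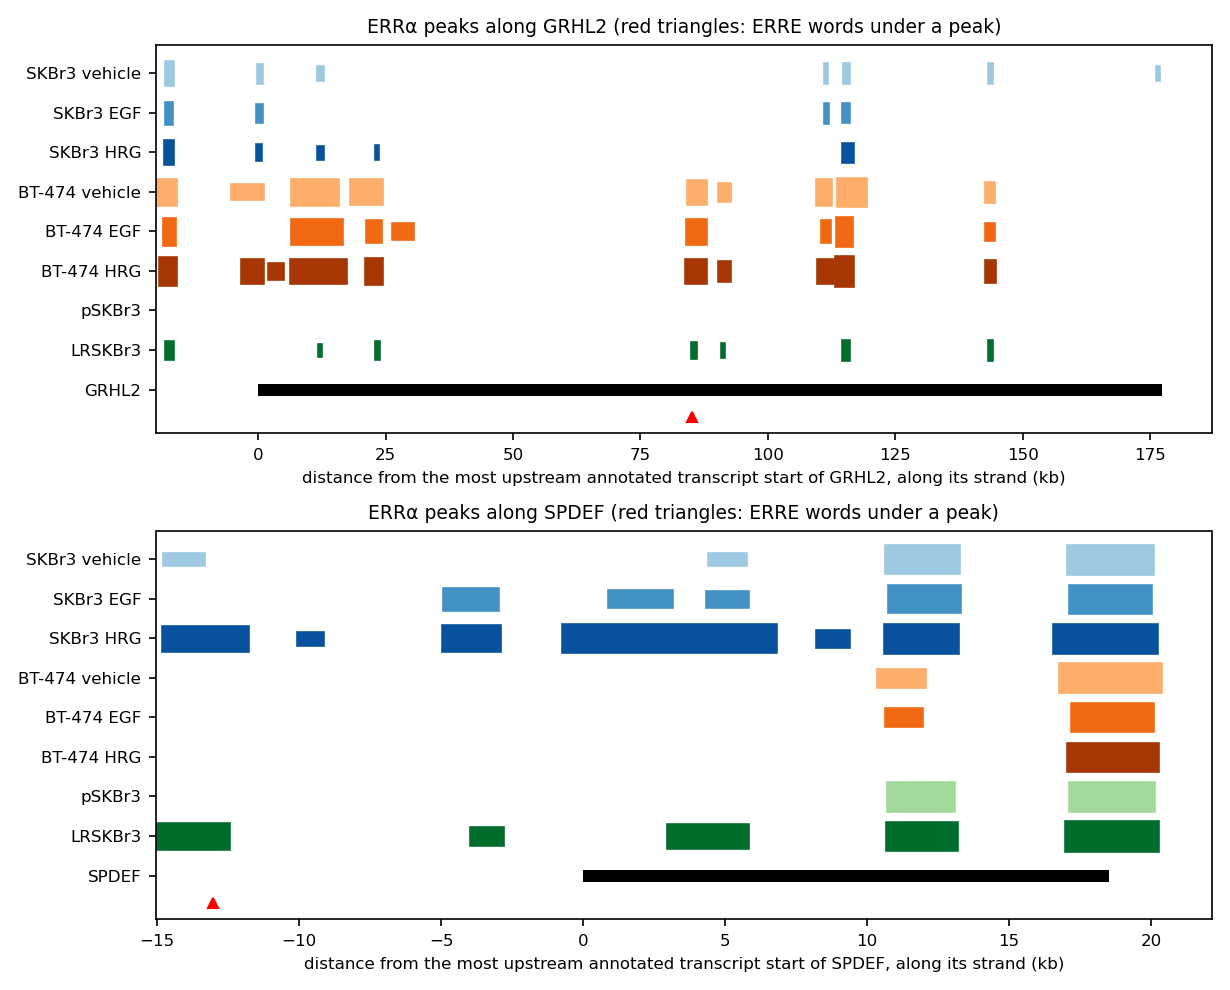
ERRα peaks along GRHL2 (top) and SPDEF (bottom) in the 8 lists, as bars at their distance in kb from the most upstream annotated start along the gene's strand, taller for a higher score percentile, with the gene as a black bar and ERRE words under a peak as red triangles. GRHL2 carries wide BT-474 peaks and none in pSKBr3, and the upstream and 5′ sites of SPDEF carry peaks in SKBr3 and LRSKBr3 and none in BT-474.

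XBP1 (ENSG00000100219, chr22:29190543-29196585, minus strand) held 1, 1 and 3 peaks in SKBr3 cells on vehicle, EGF and HRG and 5, 3 and 3 in BT-474 cells, with 2 in pSKBr3 and 3 in LRSKBr3. The ranges of the cell lines met at 3 in the full lists. In lists of equal size XBP1 held 1 peak in each SKBr3 list and 4, 3 and 3 in the BT-474 lists, and at 1e-10 1 in each and 3 in each. XBP1-s05, 18535 bp upstream, was called in all 8 lists at the 93.9 to 98.9 percentiles, and its lowest percentile exceeded the lowest of each of the other 5 sites called throughout. XBP1-s04, 13222 bp upstream, lay at the 92.0, 85.7 and 89.3 percentiles in BT-474 cells, at 24.6 on HRG in SKBr3 cells, where it was not called on vehicle or EGF, and at 57.5 and 61.4 in pSKBr3 and LRSKBr3. XBP1-s01, downstream of the gene, was called in the 3 BT-474 lists only, and it lies nearer to a start of CCDC117. The promoter site XBP1-s02 was weak, at 31.2 in BT-474 on vehicle, 0.578 in SKBr3 on HRG and 26.6 in LRSKBr3.

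ELF3 (ENSG00000163435, chr1:201977073-201986311, plus strand) was covered by broad peaks, and its count depends on how the caller divided them. It held 1, 5 and 2 peaks in SKBr3 cells on vehicle, EGF and HRG, with summed widths of 17.5, 21.4 and 21.4 kb. It held 4, 3 and 4 peaks in BT-474 cells, with 9.82, 5.25 and 9.32 kb, and 4 and 3 peaks in pSKBr3 and LRSKBr3, with 13.4 and 19.5 kb. By width SKBr3 thus exceeded BT-474 in every pair of lists, while the counts overlapped. The share of all genes that separate by width was not counted. The single SKBr3 vehicle peak was 17511 bp wide with a score of 209.68, and an HRG peak over the same stretch was 18389 bp wide with a score of 3100.0. ELF3-s01, which spans the gene over 18397 bp and holds the paired ERRE, was called in all 8 lists. It lay at the 63.5 percentile on vehicle in SKBr3 cells and at the 93.3 to 100.0 percentiles in the other 7 lists. ELF3-s02, downstream, was called in 6 lists, on EGF and HRG but not on vehicle in SKBr3 cells, at the 25.9 and 80.8 percentiles.

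Over the 60 sites of the 9 genes, 30 (50%) were called in lists of both cell lines, against 27.2% of all sites. Sites called in all 8 lists numbered 6 (10.0% against 7.10%), 1 each at ESR1, FOXA1, TFAP2A, SPDEF, XBP1 and ELF3. BT-474 lists alone called 11 sites (18.3% against 28.7%), 5 of them at ESR1, and lists of SKBr3 origin alone called 19 (31.7% against 44.1%), 8 of them at ESR1 and 5 at SPDEF. Sites called in a single list made up 26.7% of the 60 and 41.6% of all sites. By position 27 of the 60 lay in introns and 10 within 1 kb of a start, and 53 had their nearest start in the gene itself. The share within 1 kb of a start was 16.7% against 12.1% of all sites. These shares depended on how peaks were matched. With centres within 500 bp the 9 genes held 96 sites, of which 25 (26.0% against 22.4% of all sites) were called in both cell lines and 3 (3.12% against 4.72%) in all 8 lists. With 50% of both peaks overlapping they held 85 sites, 23 of them (27.1% against 22.6%) in both cell lines and 4 (4.71% against 5.62%) in all 8 lists. The share in BT-474 lists only was 26.7% against 27.2% in lists of equal size, 29.4% against 29.8% at 50% overlap and 31.2% against 30.4% by centres. The share in lists of SKBr3 origin only was 26.7% against 45.1%, 43.5% against 47.6% and 42.7% against 47.2% under the same rules.

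**Figure D4:**
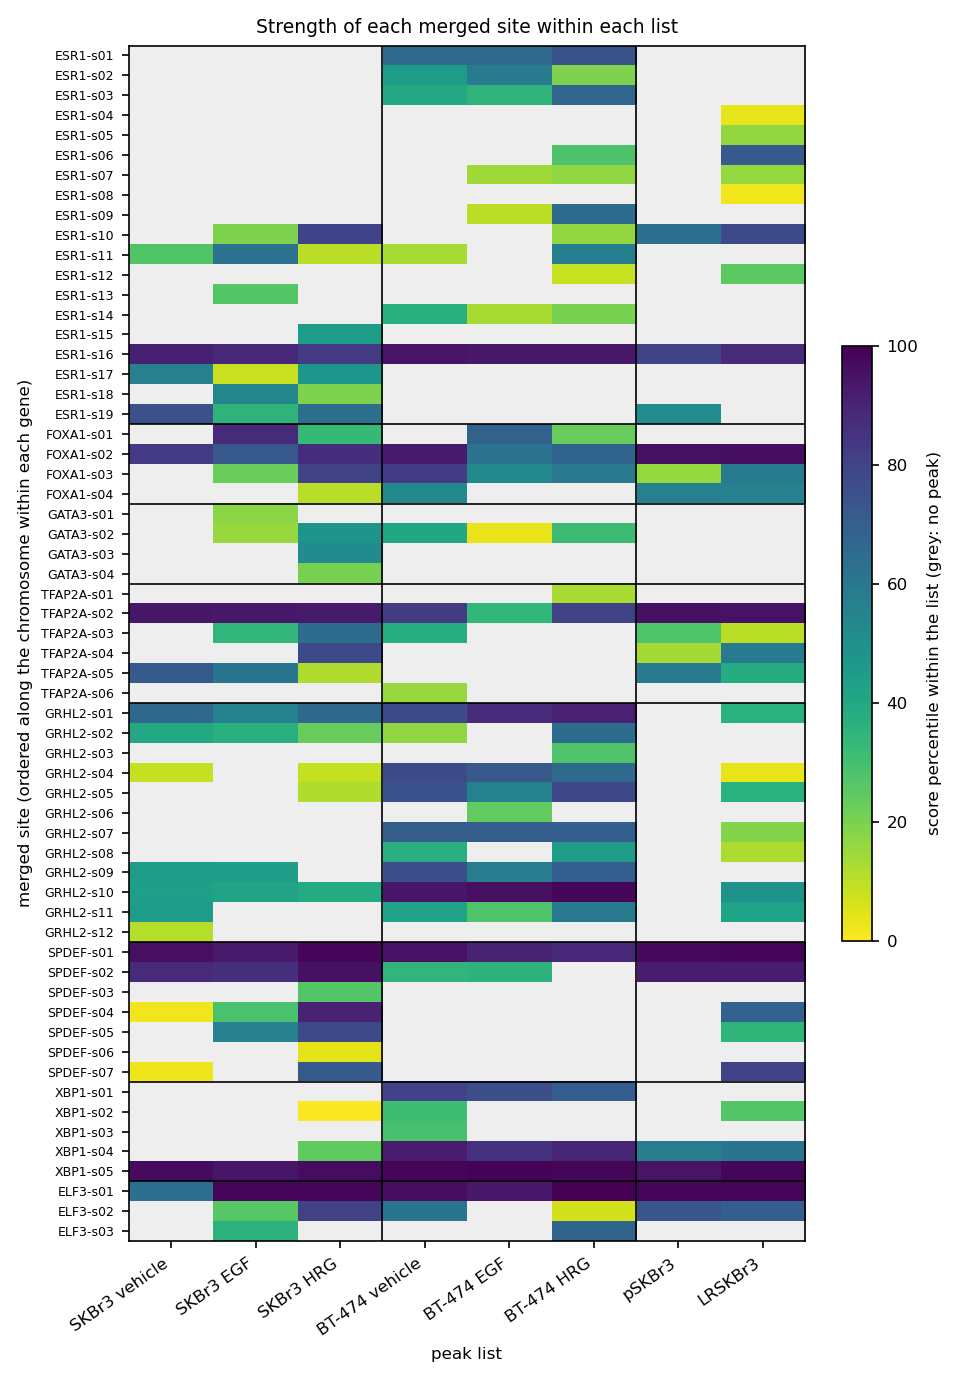
Score percentile of the strongest peak of each of the 60 sites (rows, ordered along the chromosome within each gene) in each of the 8 lists (columns), from 0 (weakest) to 100 (strongest), with grey where no peak was called. Dark rows through all columns are the 6 sites called in all 8 lists, and the GRHL2 block is darkest in the BT-474 columns and empty in pSKBr3.

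Growth factors were compared with vehicle as 1 list against 1 list in each cell line. In SKBr3 cells 6 of the 9 genes held more peaks on EGF than on vehicle (ESR1, FOXA1, GATA3, TFAP2A, SPDEF and ELF3), against 22.1% of all genes. On HRG 7 did, the same 6 and XBP1, against 43.0%. Growth factor-induced sites, called on EGF or HRG and not on vehicle, numbered 21 of 60 in SKBr3 cells (35% against 26.1% of all sites). All 4 GATA3 sites, 3 of the 4 FOXA1 sites and 3 of the 7 SPDEF sites were among them. In BT-474 cells only ESR1 gained peaks on EGF, against 7.48% of all genes, and only ESR1 and GRHL2 on HRG, against 24.5%. Growth factor-induced sites there numbered 10 (16.7% against 21.0%), 5 of them at ESR1. There were 5 at 1e-10 (11.6% against 14.8%), 6 in lists of equal size (13.3% against 16.1%) and 21 with sites matched by centres within 500 bp, where the shares were 21.9% and 22.2%. In lists of equal size none of the 9 genes gained peaks in BT-474 cells on either growth factor (all genes, 10.2% on EGF and 10.7% on HRG), and ESR1 went from 5 to 4 peaks on EGF. In SKBr3 cells 5 still gained on EGF and 6 on HRG, against 16.7% and 30.5% of all genes. GATA3 then held 0 peaks on vehicle and on EGF, and XBP1 1 on vehicle and on HRG. At 5 of the 9 genes (TFAP2A, GRHL2, SPDEF, XBP1 and ELF3) the count moved in opposite directions in the cell lines on EGF or on HRG, against 19.6% of all genes.

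Between the resistant and the parental line, 5 of the 9 genes held more peaks in LRSKBr3 than in pSKBr3 (ESR1, FOXA1, GRHL2, SPDEF and XBP1), against 46.8% of all genes, and ELF3 alone held fewer, against 5.45%. At ELF3 the summed peak width was 13.4 kb in pSKBr3 and 19.5 kb in LRSKBr3, so the lower count went with wider coverage. LRSKBr3-specific sites, called in LRSKBr3 and not in pSKBr3, numbered 17 of 60 (28.3% against 21.7% of all sites). They comprised 7 sites of GRHL2, 6 of ESR1, 3 of SPDEF and 1 of XBP1. The only pSKBr3-specific site by these rules was ESR1-s19 (1.67% against 3.04%). Lists of equal size held 3 (6.67% against 9.92%), matching by 50% overlap or by centres gave 4 (4.71% against 4.42% and 4.17% against 4.53%), and without the gene body there was none. Of the 17, 8 were also called in SKBr3 on HRG (47.1% against 41.4% of all LRSKBr3-specific sites), 4 on EGF (23.5% against 36.7%) and 6 on vehicle (35.3% against 34.7%). Those on a growth factor and not on vehicle were 3 (17.6% against 27.4%). A BT-474 list held 11 of them (64.7% against 35.1%), 7 being GRHL2 sites, and 3 were in no other list (17.6% against 30%). The LRSKBr3 list held 39777 peaks and the pSKBr3 list 22539, and with all lists cut to equal size 4 of 45 sites at the 9 genes (8.89%) were LRSKBr3-specific, against 10.9% of all sites. Of these 2 were at SPDEF and 1 each at ESR1 and GRHL2. At that size FOXA1, GRHL2 and SPDEF held more peaks in LRSKBr3 (18% of all genes did), while ESR1 held 3 in each list and XBP1 2 in each. TFAP2A then held 4 in pSKBr3 and 2 in LRSKBr3, beside ELF3 with 4 and 3 (18.5% of all genes held fewer). At the threshold of 1e-10 ELF3 held 3 in each and no gene of the 9 held fewer, against 3.46% of all genes. FOXA1, TFAP2A, GRHL2 and SPDEF then held more (39.1% of all genes did), TFAP2A with 2 in pSKBr3 and 3 in LRSKBr3. LRSKBr3-specific sites at 1e-10 were 10 of 43 (23.3% against 24.5% of all sites). By centres they were 20 of 96 (20.8% against 20.9%) and at 50% overlap 20 of 85 (23.5% against 21.4%).

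Words for other factors were counted within 100 bp of the centre of the strongest peak of each site, on both strands. The ERRE was found at 3 of 60 sites (5.0% against 4.90% of all sites), all in ESR1, and the 7-base core, which every ERRE contains, at 11 (18.3% against 18.5%). AP-1 words (TGACTCA or TGAGTCA) were at 3 (5.0% against 7.29%), forkhead words (TGTTTAC), of the class that FOXA1 binds, at 3 (5.0% against 5.09%), and GATA words (AGATAA) at 8 (13.3% against 14.8%). The AP-2 word (GCCNNNGGC) was at 6 (10.0% against 7.12%) and the grainyhead word (AACCNGTT) at 1 (1.67% against 2.12%). Within 250 bp of the centre the shares were 6.67% against 7.96% for the ERRE, 25.0% against 30.7% for the 7-base core and 13.3% against 14.9% for AP-1. They were 16.7% against 15.2% for AP-2, 11.7% against 11.3% for forkhead, 3.33% against 4.84% for grainyhead and 31.7% in both for GATA words. Over the whole width of the strongest peak, a count added afterwards, the AP-2 word was at 32 sites (53.3% against 33.9%) and AP-1 words at 26 (43.3% against 34.3%), beside the share for the ERRE given above. The 7-base core was at 36 (60.0% against 51.9%), the grainyhead word at 12 (20% against 14.6%), forkhead words at 16 (26.7% against 29.7%) and GATA words at 40 (66.7% against 67.9%). The median width of the peaks at the 9 genes exceeded that of the whole list in all 8 lists, and the part of width in these shares was not tested.

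The 9 genes were set beside 3 lists of related genes, counted in the same way. The median window was 45.8 kb for the 9 genes, 64.7 kb for the luminal genes and 47.2 kb for the basal and mesenchymal genes. It was 64.3 kb for the relatives and 56.1 kb for all genes, and the part of window width in the shares was not tested. Of 22 other luminal genes, 17 to 19 held a peak in any given list, 13 held one in all 8 lists and none was without a peak. The luminal keratin genes KRT7, KRT8 and KRT18 were bound throughout, and KRT19 in all lists but SKBr3 on HRG. PGR, the progesterone receptor gene, held no peak in any BT-474 list, MYB, LMO4, TBX3, MUC1 and STAT5A were each without a peak in 2 or more lists, and CITED1 held 1 peak, in LRSKBr3. Of 18 basal and mesenchymal genes, 6 to 11 were bound in a given list, 3 were bound in all 8 (TP63, MYLK and BCL11A), and KRT5, FOXC1 and SNAI2 held no peak in any list. TP63, the basal p53 relative, held 82 peaks over the 8 lists. CDH3, the neighbour of CDH1, held 4, 3 and 5 peaks in BT-474 cells and 0 in all lists of SKBr3 origin, and shared 0 of these peaks with CDH1. Of 18 relatives of the 9 factors, 10 to 16 were bound, 9 in all 8 lists. As shares of all protein-coding genes, 30.3% were bound in all 8 lists and 13.6% in none. GRHL3 held 10, 9 and 12 peaks in SKBr3 cells on vehicle, EGF and HRG and 5, 3 and 4 in BT-474 cells, the reverse order to GRHL2. The ETS genes EHF and ELF5 stood in both the luminal list and the list of relatives.

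**Figure D5:**
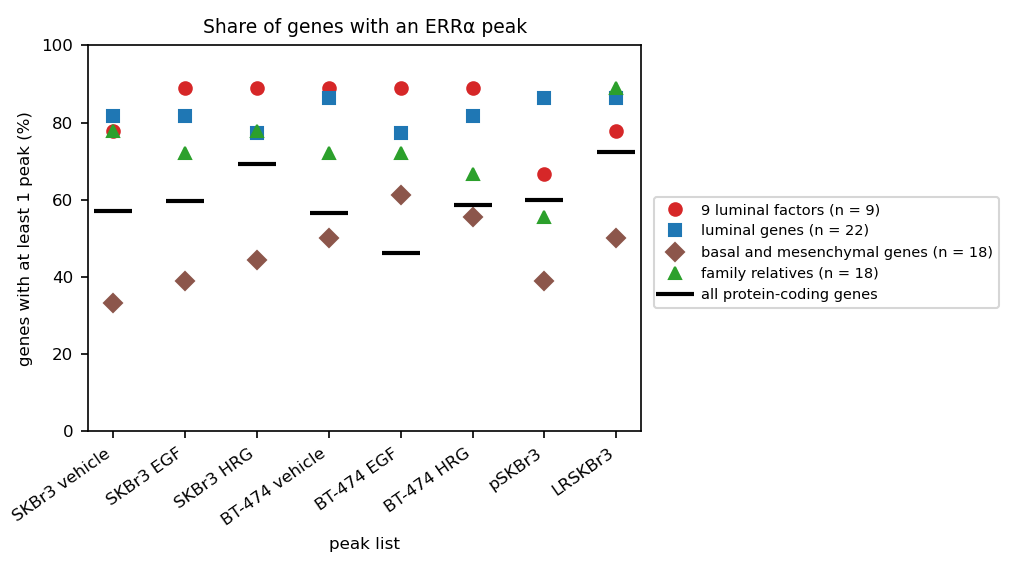
Share of genes with at least 1 ERRα peak in each of the 8 lists, in percent, for the 9 luminal factors (circles), 22 luminal genes (squares), 18 basal and mesenchymal genes (diamonds), 18 family relatives (triangles) and all 20136 protein-coding genes (bars). The circles and squares lie above the bars in all 8 lists, and the triangles in all lists but pSKBr3. The diamonds lie below the bars in all lists but BT-474 on EGF.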

How the data were processed

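ERRα ChIP-seq peak lists of 19 ChIP and input libraries were used, 1 list for each of 8 conditions. According to the submitters' processing notes and the methods, the authors aligned reads to hg19 (GRCh37) with BWA 0.5.9, used SAMtools 0.1.18, and ran MACS peak calling with a P cutoff of 1e-05, pooling the ChIP libraries of a condition. The score deposited by the authors with each peak is a multiple of the negative log10 of its P value, on which the cutoff of 1e-05 corresponds to a score of 50, the lowest value in the lists. A header line of the 3 SKBr3 growth factor and vehicle lists names FindPeaks, although their peaks carry MACS names, so that a difference in how they were made from the other lists was not tested. Other values in the lists are interval positions.

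Gene bodies and transcript starts came from the GENCODE annotation lifted to GRCh37. Percentiles are mid-ranks of the score within a list. Words were sought in the GRCh37 genome. All sequences are GRCh37 sequence. The genes named are the 9 members whatever their values, with, for each, the site called in most lists and the highest-ranked of its sites in BT-474 lists only, in SKBr3-derived lists only, specific to LRSKBr3 and induced by growth factors in SKBr3. Other sites and genes in the text were named after their values were seen. The 9 members and the 3 companion lists were chosen with earlier results of these data known. Alternatives concerned the P threshold (1e-08, 1e-10), equal list size, the overlap rule (50% of both peaks, centres within 500 bp), the window (10 kb, no gene body) and the word window (250 bp). Merging and assignment were tested on simulated data, where 3000 of 3000 sites were recovered. Python 3.11.15, numpy 2.4.6, pysam 0.24.0 and matplotlib 3.10.9 were used.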

Additional observations from a re-analysis of the deposited data

Results flagged for a closer look

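At 5 of the 9 genes the number of peaks moved in opposite directions in SKBr3 and BT-474 cells on the same growth factor, each as 1 list against 1 list, and the difference was not tested. Among all genes 19.6% did so. TFAP2A went from 2 to 3 peaks on EGF and to 5 on HRG in SKBr3 cells, and from 4 to 1 and 3 in BT-474 cells, so that the 2 cell lines' changes differed by 4 peaks on EGF and by 4 on HRG. SPDEF went from 4 to 7 peaks on HRG in SKBr3 and from 2 to 1 in BT-474, a difference of 4. XBP1 went from 1 to 3 on HRG in SKBr3 and from 5 to 3 in BT-474, also a difference of 4. GRHL2 went from 7 to 5 on HRG in SKBr3 and from 9 to 10 in BT-474, a difference of -3. ELF3 went from 1 to 5 on EGF in SKBr3 and from 4 to 3 in BT-474, a difference of 5, and there the SKBr3 vehicle peak was a single one of 17511 bp. In lists of equal size 5 genes again moved in opposite directions (ESR1, FOXA1, GATA3, TFAP2A and SPDEF, against 12.5% of all genes), so XBP1, GRHL2 and ELF3 did not. At 1e-10 there were 6 (ESR1, FOXA1, GATA3, GRHL2, SPDEF and ELF3, against 13.4%), without TFAP2A and XBP1.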

How the results depend on the processing

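No paired analysis was possible because each condition has 1 pooled list and no test was made. Of 68 recounts of the main numbers under 7 alternatives, 46 stayed within 1.5 times the main count and 22 did not. The number of genes bound in all 8 lists was 4 to 6 under the 5 alternatives that bear on it, since the matching rules between lists cannot change it. Of 63 recounts of sites per gene, 14 moved by more than that, and 7 of the others were those of TFAP2C, which had no site. Stricter matching by overlap or by centres gave 9 and 10 sites at FOXA1 (4 before), 11 and 14 at TFAP2A (6) and 8 and 10 at ELF3 (3), and leaving out the gene body gave 6 at ESR1 (19) and 5 at GRHL2 (12). Matching by centres within 500 bp gave 96 sites in place of 60, 3 in all 8 lists, 30 in BT-474 lists only, 41 in SKBr3-derived lists only, 21 growth factor-induced in BT-474 and 4 pSKBr3-specific. Requiring 50% of both peaks to overlap gave 25 sites in BT-474 lists only, 37 in SKBr3-derived lists only and 4 pSKBr3-specific. Lists of equal size gave 12 in SKBr3-derived lists only, 6 growth factor-induced in BT-474, 4 LRSKBr3-specific (17 in the full lists) and 3 pSKBr3-specific. At 1e-10 these were 12 (27.9% against 44.9% of all sites), 5 and 10 (23.3% against 24.5%) for the first 3 classes. At 1e-08 there were 5 growth factor-induced sites in BT-474 and 2 pSKBr3-specific. Without the gene body, 11 sites were in SKBr3-derived lists only, 6 growth factor-induced in BT-474, 9 LRSKBr3-specific and 0 pSKBr3-specific. The cause of these shifts was not tested beyond the smaller number of peaks or finer sites each rule leaves. Unknown depth and 1 list per condition limit every comparison.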
